A study of Mus musculus with 4 samples.

Results

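Transcripts of 10 pancreas genes were followed through 2 droplet RNA libraries of sorted islet T cells. The genes were chosen by name: 3 hormone genes (Ins1, Ins2 and Gcg), 5 digestive enzyme or cofactor genes of acinar cells (Prss2, Clps, Ctrb1, Try4 and Pnlip) and 2 genes often used for duct cells (Spp1 and Clu). All 10 were found among the 27998 genes of the matrices, and every deposited barcode was used. T cells from the pancreatic islets of pre-diabetic female NOD mice at 16 weeks of age were set against the same cells at 8 weeks. NOD is an inbred strain with spontaneous autoimmune diabetes. At both ages live cells were sorted on a T cell receptor beta antibody with DAPI as the dead cell stain. The sources used here do not state how many mice were pooled, and 1 RNA and 1 receptor library were made per age.

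In the pancreas, islet beta cells make insulin, which the mouse encodes in the gene pair Ins1 and Ins2, and alpha cells make glucagon from Gcg. The surrounding acinar cells devote most of their messenger RNA to secreted digestive enzymes, and duct cells drain them into the gut. T cells have no known use for these enzymes or hormones, whereas Spp1, which encodes osteopontin, is also known from activated lymphocytes. A droplet barcode marks the RNA captured together in 1 droplet, so pancreas RNA can share a barcode with T cell RNA.

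The RNA libraries held 2107 barcodes and 8183747 UMIs at 16 weeks, where a UMI is a random tag that stands for 1 molecule of RNA caught in the droplet, and 2043 barcodes and 8659371 UMIs at 8 weeks. The median barcode had 2840 UMIs at 16 weeks and 2819 at 8 weeks. T cell RNA, taken as 3 or more UMIs of 16 T cell marker genes such as Cd3e, Lat and Lck, was present in 2013 barcodes (95.5%) at 16 weeks and 1963 (96.1%) at 8 weeks. Both an alpha and a beta receptor chain, a paired receptor, were present in 1405 (66.7%) at 16 weeks and 1366 (66.9%) at 8 weeks. The RNA libraries shared 5 barcode sequences, and no enzyme-rich barcode, as defined next, was among them. With 1 library per age there was no replicate check and no test. Intervals are exact 95% intervals that cover counting error only, and a difference compares these libraries rather than the ages in general.

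A barcode was called enzyme-rich at 10 or more UMIs summed over the 5 enzyme genes, hormone-rich at 10 or more over Ins1, Ins2 and Gcg, and duct-gene-rich at 10 or more over Spp1 and Clu. The remaining barcodes, 2049 at 16 weeks and 2005 at 8 weeks, are called the rest. The enzyme cut fell in a continuous range, with 4 barcodes at 10 UMIs and 4 at 9 at 16 weeks, and 1 at 10 and 3 at 9 at 8 weeks. The hormone cut fell in a gap: the lowest hormone-rich barcode had 29 UMIs and the next 5 at 16 weeks, against 42 and 9 at 8 weeks.

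Positions of the 5 enzyme genes are given here on mouse build GRCm38 (mm10) as whole annotated protein-coding genes. Prss2 and Try4 lie on the same chromosome. Prss2, an anionic trypsinogen, spans chr6:41521787-41525079 on the plus strand, and Try4, a second trypsinogen, spans chr6:41302269-41305532 on the same strand. Ctrb1, chymotrypsinogen B, spans chr8:111686519-111691010 on the minus strand, and Clps, the colipase that lets pancreatic lipase work on fat in bile, spans chr17:28558149-28560766 on the minus strand. Pnlip, that lipase, spans chr19:58652498-58681788 on the plus strand. The 250 bases before the RefSeq transcription start (GRCm38.p6) are shown for the 4 enzyme genes that have an entry, as the strand of the gene reads. Any link of these sequences to the levels in the libraries was not tested. Capitals mark 3 motifs, each searched on both strands. The TATA box, TATAAA, is where the general transcription machinery can sit. The E-box searched for was CACCTG, which basic helix-loop-helix factors can bind. The TC-box was TTTCCC, which the acinar factor PTF1 is known to bind together with an E-box.
Prss2: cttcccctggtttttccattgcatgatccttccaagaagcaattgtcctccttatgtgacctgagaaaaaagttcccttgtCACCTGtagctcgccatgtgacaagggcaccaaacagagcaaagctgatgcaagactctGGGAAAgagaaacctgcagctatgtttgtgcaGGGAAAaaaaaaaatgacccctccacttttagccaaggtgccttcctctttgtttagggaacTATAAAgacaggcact
Try4: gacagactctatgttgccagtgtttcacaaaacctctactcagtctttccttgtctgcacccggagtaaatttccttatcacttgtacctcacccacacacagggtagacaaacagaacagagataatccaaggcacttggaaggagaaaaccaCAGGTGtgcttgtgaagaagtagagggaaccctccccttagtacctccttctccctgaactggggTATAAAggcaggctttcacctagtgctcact
Ctrb1: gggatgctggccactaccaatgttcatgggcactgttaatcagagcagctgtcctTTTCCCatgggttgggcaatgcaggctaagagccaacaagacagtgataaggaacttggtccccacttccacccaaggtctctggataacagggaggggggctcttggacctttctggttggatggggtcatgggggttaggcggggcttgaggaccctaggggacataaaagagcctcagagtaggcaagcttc
Pnlip: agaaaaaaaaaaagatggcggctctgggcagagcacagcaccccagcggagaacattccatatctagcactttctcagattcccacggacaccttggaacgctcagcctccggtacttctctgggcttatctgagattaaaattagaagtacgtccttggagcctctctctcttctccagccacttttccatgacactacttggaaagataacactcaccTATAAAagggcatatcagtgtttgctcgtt

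The window of Prss2 (chr6:41521526-41521775) held all 3 motifs, with the first base of the E-box 169 bases before the start, the TC-box letters at 110 and 78 bases and the TATA box at 16 bases. Try4 (chr6:41302022-41302271) had an E-box at 96 bases and a TATA box at 31 bases. Ctrb1 (chr8:111691011-111691260) had a TC-box at 195 bases, and Pnlip (chr19:58670115-58670364) a TATA box at 30 bases. Among 32851 RefSeq promoters of the same length the TATA letters were found in 12.4%, the E-box letters in 17.2%, the TC-box letters in 21.9%, and E-box and TC-box together in 3.61%. These matches describe letters in the windows and carry no measure of binding. The RefSeq start used for Pnlip lies inside the longer gene span given above.

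The trypsinogens are close copies, which bears on how their reads can be assigned. Over 738 coding bases Try4 was 91.7% identical to Prss2, with a longest shared run of 70 bases, but 97.4% identical to Try5, with a shared run of 274 bases. The counts of Try4, Try5 and Try10 (95.4% identical to Try4) are therefore uncertain as single genes, and a sum over the family is safer. The 60 coding bases where Prss2 and Try4 differ most, positions 259 to 318 of the coding sequence, are shown with capitals where a sequence differs from Try4. There Prss2 differed at 14 positions and Try5 at 0.
Prss2: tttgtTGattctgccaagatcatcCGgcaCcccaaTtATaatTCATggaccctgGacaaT
Try4: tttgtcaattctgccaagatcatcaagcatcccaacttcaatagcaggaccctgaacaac
Try5: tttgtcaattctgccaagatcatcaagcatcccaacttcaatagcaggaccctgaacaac

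All 5 enzyme genes were higher in the 16-week library. Ctrb1 had 7708 UMIs at 16 weeks and 1332 at 8 weeks, or 942 CPM (UMIs per 1000000 UMIs of the library; 921 to 963) against 154 (146 to 162), a log2 ratio of 2.61 (2.53 to 2.70). Prss2 had 3423 UMIs (418 CPM) at 16 weeks and 563 (65 CPM) at 8 weeks, a log2 ratio of 2.68 (2.56 to 2.82). For Clps the libraries held 3760 UMIs (459 CPM) at 16 weeks and 834 (96.3 CPM) at 8 weeks, a log2 ratio of 2.25 (2.15 to 2.36). These 3 genes were thus between 4.77-fold and 6.43-fold higher at 16 weeks. Try4 had 3118 UMIs (381 CPM) at 16 weeks and 466 (53.8 CPM) at 8 weeks, a log2 ratio of 2.82 (2.68 to 2.97). Pnlip had 3127 UMIs (382 CPM) at 16 weeks and 345 (39.8 CPM) at 8 weeks, a log2 ratio of 3.26 (3.10 to 3.43), the highest of the 5. The sum of the 5 genes was 21136 UMIs (2583 CPM) at 16 weeks and 3540 (409 CPM) at 8 weeks, a log2 ratio of 2.66 (2.61 to 2.71).

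These totals sat in few barcodes. At 16 weeks 52 enzyme-rich barcodes (2.47% of all, 1.85 to 3.22) held 97.2% of the enzyme UMIs, and at 8 weeks 27 (1.32%, 0.873 to 1.92) held 86.8%. The single highest barcode held 13.7% of the sum at 16 weeks and 16.5% at 8 weeks, and the 10 highest held 72.8% and 72% at those ages. A share of 50% of the sum was reached with 6 barcodes at 16 weeks and 5 at 8 weeks. Per gene the picture was alike: barcodes with 10 or more UMIs of that gene held between 93% (Clps) and 96.8% (Ctrb1) of its UMIs at 16 weeks, and between 74.2% (Clps) and 85.3% (Ctrb1) at 8 weeks.

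**Figure D1:**
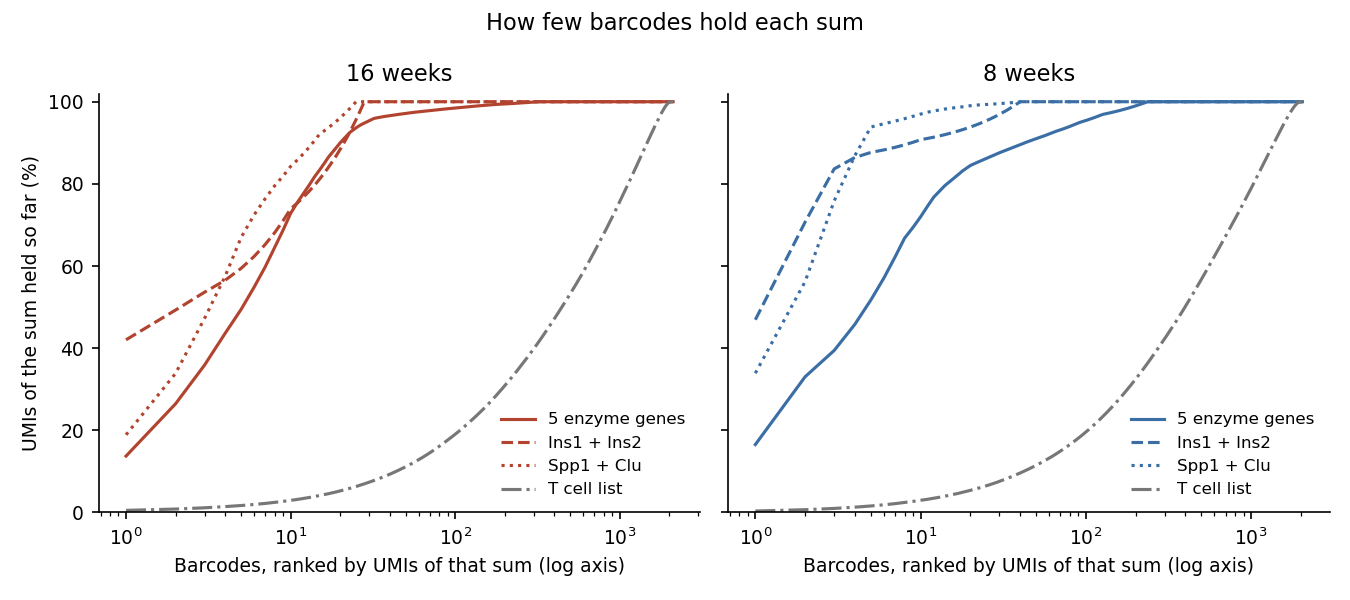
Share of the UMIs of each gene sum (vertical axis, %) held by the barcodes ranked from highest to lowest for that sum (horizontal axis, log scale), at 16 weeks (left) and 8 weeks (right). The lines of the 5 enzyme genes, of Ins1 + Ins2 and of Spp1 + Clu pass 50% within 6 barcodes in each library, whereas the line of the 16 T cell genes climbs over the whole library.

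Enzyme-rich barcodes came in 2 kinds at each age. The first had almost no T cell RNA: 29 barcodes at 16 weeks and 17 at 8 weeks, with 19886 enzyme UMIs at 16 weeks and 2765 at 8 weeks, which is 94.1% and 78.1% of the enzyme sum at those ages. They averaged 686 enzyme UMIs per barcode at 16 weeks and 163 at 8 weeks. This kind was defined by under 3 UMIs of the 16 T cell genes, so a low sum is in part fixed by that choice. The sum of these genes in all of the barcodes was 4 UMIs at 16 weeks and 5 at 8 weeks. No receptor chain was found in any, 0 of 29 at 16 weeks (exact upper limit 11.9%) and 0 of 17 at 8 weeks (19.5%). Few genes were detected in most of them, with a median of 90 genes at 16 weeks and 110 at 8 weeks, and 29 of 29 and 14 of 17 had under 500 genes. The enzyme genes made up a median of 34.6% of their UMIs at 16 weeks and 5.44% at 8 weeks. At 8 weeks this kind was mixed, and included barcodes with 2616 and 3732 genes that were also duct-gene-rich. These had 259 and 524 UMIs of Spp1 and Clu together, and enzyme shares of 0.684% and 0.279%. The median mitochondrial share of the whole kind was 3.08% at 16 weeks and 18.3% at 8 weeks.

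The barcode with most enzyme RNA in the 16-week library had 6097 UMIs from 302 genes, of which 2900 (47.6%) were of the 5 enzymes: 1154 of Ctrb1, 632 of Clps, 538 of Try4, 374 of Prss2 and 202 of Pnlip. At 8 weeks the highest had 2120 UMIs from 167 genes, 585 of them (27.6%) of the 5 enzymes, and 34% mitochondrial UMIs. Neither held a T cell UMI. All 5 enzymes were present in 28 of the 29 barcodes at 16 weeks and in 14 of the 17 at 8 weeks.

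The second kind had T cell RNA, 3 or more UMIs by its definition: 23 barcodes at 16 weeks and 10 at 8 weeks, with 668 enzyme UMIs at 16 weeks (29 per barcode) and 308 at 8 weeks (30.8 per barcode). The lowest had 13 T cell UMIs at 16 weeks and 19 at 8 weeks. Since the definition uses T cell RNA, they are set beside the barcodes of the rest that meet it too, 1984 at 16 weeks and 1947 at 8 weeks; a likeness is in part fixed by that choice, and the values are a description. The T cell genes together stood at 10386 CPM (9892 to 10898) in them and 9453 CPM (9384 to 9522) in that part of the rest at 16 weeks. At 8 weeks they stood at 9410 CPM (8712 to 10150) and 9980 CPM (9913 to 10048). Enzymes were a small part of their RNA, a median of 0.315% of UMIs at 16 weeks and 0.357% at 8 weeks. The median barcode of this kind was deeper, with 4750 UMIs against 2850 at 16 weeks and 5241 against 2863 at 8 weeks. Thinned to 1700 UMIs, they averaged 17.3 T cell UMIs against 16.4 at 16 weeks, and 17.7 against 17.6 at 8 weeks.

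**Figure D2:**
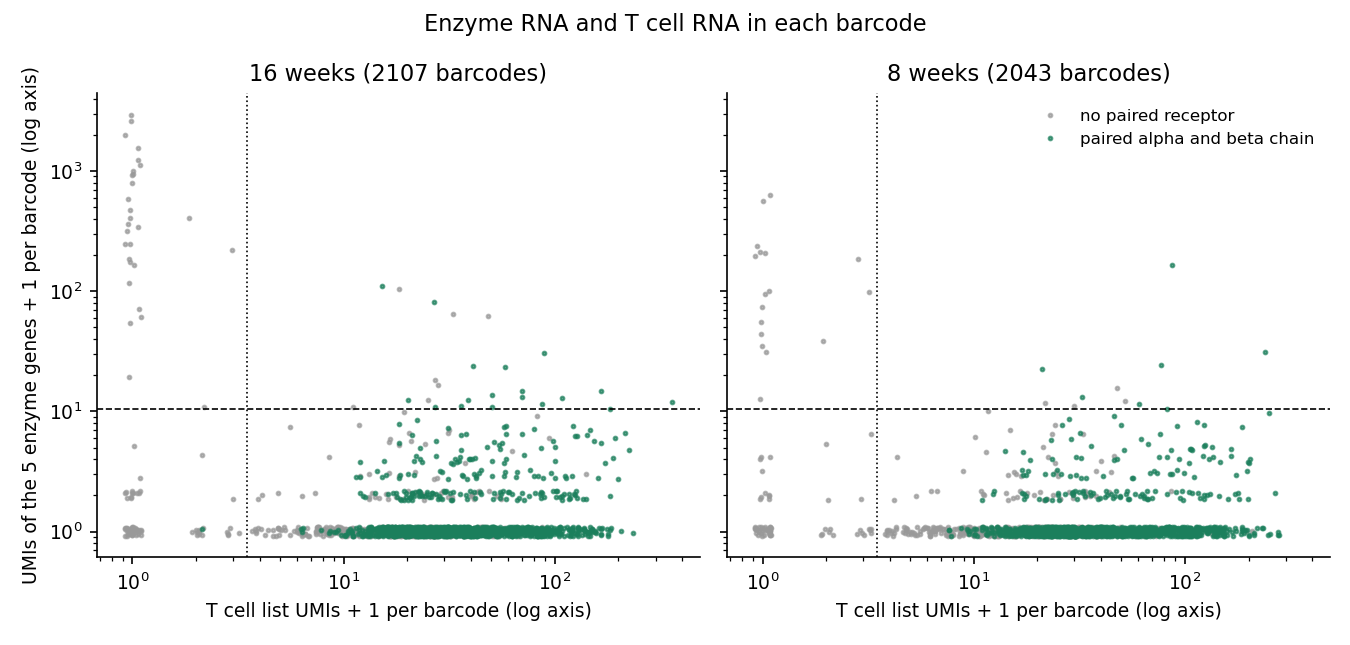
Each point is 1 barcode, with the UMIs of the 16 T cell genes + 1 (horizontal, log scale) and of the 5 enzyme genes + 1 (vertical, log scale, points spread slightly), at 16 weeks (left) and 8 weeks (right). Green points have a paired receptor, the dashed line marks 10 enzyme UMIs and the dotted line 3 T cell UMIs. At the upper left stand the 29 and 17 enzyme-rich barcodes without T cell RNA, none green, and at the upper right the 23 and 10 with it.

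Receptors in the enzyme-rich barcodes with T cell RNA are set beside the barcodes of the rest with T cell RNA. A paired receptor was present in 17 of 23 (73.9%, 51.6 to 89.8) against 69.7% (67.6 to 71.7) at 16 weeks, and in 6 of 10 (60%, 26.2 to 87.8) against 69.7% (67.6 to 71.7) at 8 weeks. A beta chain was found in 21 and 7 of them at 16 and 8 weeks, and the median beta chain support was 11 UMIs against 6 at 16 weeks and 10 against 8 at 8 weeks. At least 2 productive beta chains were carried by 6 of 23 (26.1%, 10.2 to 48.4) against 11.3% (9.98 to 12.8) at 16 weeks. At 8 weeks they were carried by 2 of 10 (20%, 2.52 to 55.6) against 10.3% (8.96 to 11.7). The intervals of these shares overlap at both ages, and the deeper sequencing of the enzyme-rich barcodes stands beside them; its part was not tested. The clonotypes of these barcodes were all distinct, 21 of 21 at 16 weeks and 8 of 8 at 8 weeks. Of the 23 barcodes at 16 weeks, 10 had UMIs of Cd4 and none of Cd8a or Cd8b1, 2 the reverse, 3 both and 8 neither; the numbers at 8 weeks were 5, 0, 1 and 4 of 10.

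The highest of this kind at 16 weeks had 115 enzyme UMIs among 3237, 13 T cell UMIs and 1 alpha and 1 beta chain. At 8 weeks the highest had 163 enzyme UMIs among 9443, 88 T cell UMIs, 1 alpha and 1 beta chain, and Cd4 without Cd8a or Cd8b1. Markers of B cells were at 0 UMIs in these barcodes at both ages. Those of myeloid cells summed to 8 UMIs at 16 weeks and 0 at 8 weeks, and those of dendritic cells to 1 and 0. The myeloid UMIs at 16 weeks lay in 4 barcodes, at 50.1 CPM (21.6 to 98.7). The rest with T cell RNA stood lower, at 7.94 CPM (6.07 to 10.2). At 8 weeks the upper limit was 51.7 CPM, against 14 CPM in that part of the rest. Endothelial and stromal markers summed to 4 UMIs at 16 weeks and 2 at 8 weeks, and islet endocrine markers to 6 and 4. What lies behind the myeloid difference was not tested.

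Pooled over barcodes, the makeup of the enzyme RNA in the rest differed from that of enzyme-rich barcodes, most of all in its share of Clps. Clps made up 17.2% of the enzyme UMIs in barcodes without T cell RNA, 20.8% in those with it and 33% (29.2 to 37) in the rest at 16 weeks. At 8 weeks it made up 21.6%, 21.1% and 36.2% (31.8 to 40.8) in the same order. Ctrb1 ran the other way, at 36.7%, 36.2% and 28.9% (25.2 to 32.7) at 16 weeks and 39.1%, 35.1% and 30.5% (26.3 to 34.9) at 8 weeks. Pnlip was 15%, 13.3% and 9.79% (7.50 to 12.5) at 16 weeks and 10%, 14.3% and 5.04% (3.22 to 7.47) at 8 weeks. Prss2 lay between 15.6% and 17.2% throughout, and Try4 between 11.6% and 14.9%. UMIs of 1 barcode are not independent draws, so these intervals are too narrow. The pooled shares also weigh each barcode by its enzyme UMIs, and single enzyme-rich barcodes varied widely. Clps was 35 of 56 enzyme UMIs in 1 barcode and 1 of 21 in another at 16 weeks. At 8 weeks it was 27 of 33 in 1 and 0 of 11 in another. Without the highest barcode of each library Clps in the enzyme-rich barcodes of both kinds together was 16.6% at 16 weeks and 19.1% at 8 weeks. Among barcodes that passed a filter on genes and mitochondrial share, described with the ages, Ctrb1 was 29.7% in enzyme-rich barcodes at 8 weeks, no higher than in the rest.

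**Figure D3:**
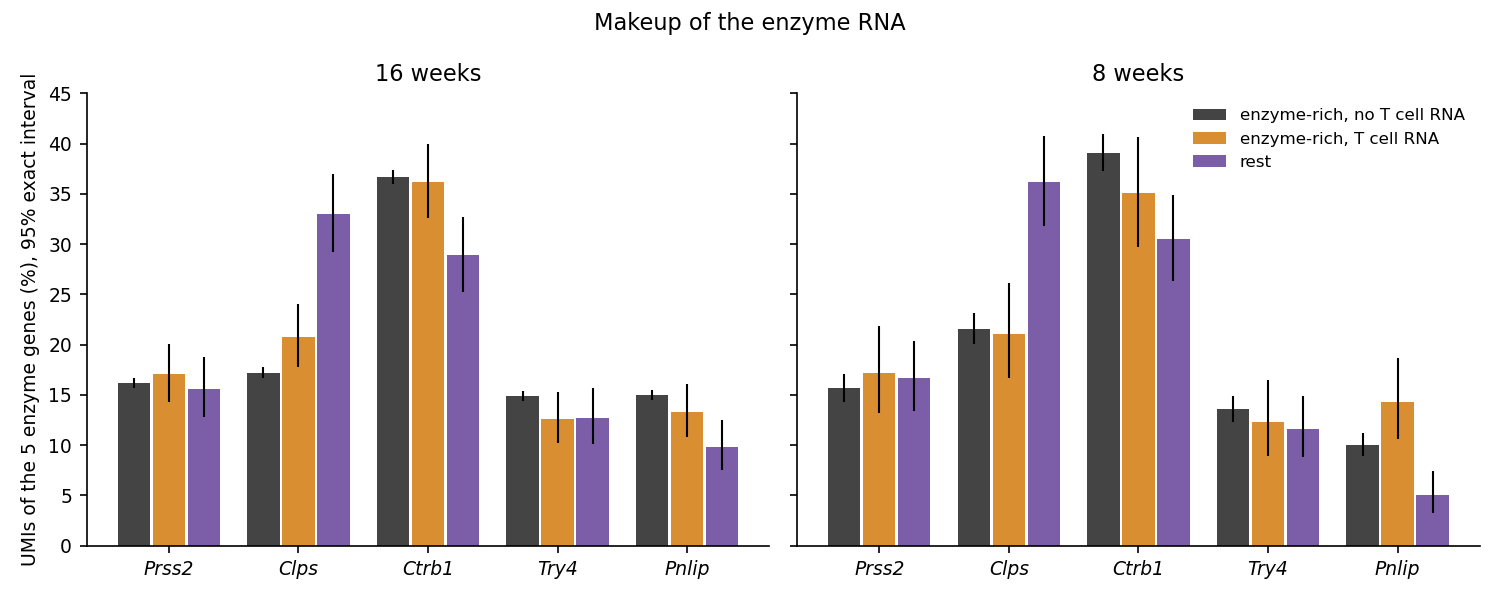
Share of each gene in the UMIs of the 5 enzyme genes (vertical axis, %, bars from 0 with exact 95% intervals) in enzyme-rich barcodes without T cell RNA, in those with it and in the rest, at 16 weeks (left) and 8 weeks (right). The purple bars of Clps in the rest, 33% and 36.2%, stand above both others at each age, and those of Ctrb1, 28.9% and 30.5%, below both.

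Other genes sat in the same barcodes. Ranked by the lower of the 2 shares of their own UMIs found in enzyme-rich barcodes, the 10 highest of 9672 genes were Pnliprp1 (94.4%), Cpa1 (92%), Cel (91.5%), Cela3b and Try5 (91.3% each), Cpb1 (91.2%), Cela2a (90.8%), Ctrl (90.5%), Amy2a5 (90.4%) and Ctrc (88.8%). Their products are lipases, carboxypeptidases, elastases, a trypsinogen, chymotrypsins and an amylase. Cela2a, an elastase, had 4525 UMIs at 16 weeks, 4441 of them in enzyme-rich barcodes, and 609 at 8 weeks, 553 of them there. In the enzyme-rich barcodes with T cell RNA, Cela2a was present in 21 of 23 at 16 weeks and 8 of 10 at 8 weeks. Genes that shared barcodes with the members by this measure were thus acinar genes, and since all were read from the same few barcodes they share library and depth.

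Most barcodes of the rest had no enzyme UMI. One or more were found in 264 of 2049 (12.9%, 11.5 to 14.4) at 16 weeks and 204 of 2005 (10.2%) at 8 weeks. A single enzyme gene was present in 159 of the 264 and in 123 of the 204, and all 5 in 1 barcode at each age. The rest, nearly all T cell barcodes, held 582 enzyme UMIs (73.6 CPM, 67.7 to 79.8) at 16 weeks and 456 (53.9 CPM, 49 to 59) at 8 weeks. This is the level of acinar RNA in cells that are not known to make it.

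Enzyme UMIs in the rest were fewer than in proportion to depth in deep barcodes. The rest holds only barcodes under 10 enzyme UMIs, which caps the CPM of a deep barcode lower than that of a shallow one. This pattern is therefore in part fixed by the cut, and the size of that part was not tested. With the barcodes ranked by depth and cut into 4 equal parts, the mean number per barcode from the shallowest to the deepest part was 0.228, 0.168, 0.258 and 0.482 at 16 weeks and 0.157, 0.144, 0.184 and 0.425 at 8 weeks. The median depth of those parts spanned 1710 to 6250 UMIs at 16 weeks and 1594 to 7539 at 8 weeks. As CPM, the enzyme level was therefore highest in the shallowest part, 145 (120 to 174) against 59.9 (52.6 to 67.8) in the deepest at 16 weeks, and 107 (85 to 134) against 44.8 (39 to 51.3) at 8 weeks.

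At an equal depth of 1700 UMIs the share of barcodes of the rest with an enzyme UMI was 7.62% (6.44 to 8.95) at 16 weeks and 6.08% (5 to 7.32) at 8 weeks; 252 and 295 shallower barcodes were left out. It differed little by receptor: 7.55% with a paired receptor and 7.84% without at 16 weeks, and 5.71% and 7.19% at 8 weeks. Barcodes with Cd4 and no Cd8a or Cd8b1 stood at 7.98% (6.08 to 10.2) and those with the reverse at 5.88% (3.52 to 9.14) at 16 weeks, and at 6.46% (4.77 to 8.52) and 4.86% (2.68 to 8.02) at 8 weeks. The intervals overlap in each of these pairs. The share of barcodes with a hormone UMI was higher beside enzyme UMIs, with intervals that overlap at both ages: 10 of 264 barcodes (3.79%, 1.83 to 6.86) with an enzyme UMI had one against 24 of 1785 (1.34%, 0.863 to 1.99) without at 16 weeks. At 8 weeks it was 9 of 204 (4.41%, 2.04 to 8.21) against 33 of 1801 (1.83%, 1.26 to 2.56). Barcodes with an enzyme UMI were deeper, with medians of 3336 against 2789 UMIs at 16 weeks and 3664 against 2768 at 8 weeks, and the part of depth in this difference was not tested.

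The hormone genes gave far fewer UMIs. Ins1 (chr19:52264297-52265476, plus strand) had 23 UMIs in 15 barcodes (2.81 CPM, 1.78 to 4.22) at 16 weeks and 84 in 13 barcodes (9.7 CPM, 7.74 to 12) at 8 weeks, a log2 ratio of -1.76 (-2.52 to -1.11). Ins2 (chr7:142678656-142743381, minus strand) had 46 UMIs in 19 barcodes (5.62 CPM) at 16 weeks and 240 in 35 barcodes (27.7 CPM) at 8 weeks, a log2 ratio of -2.29 (-2.79 to -1.84). Both insulin genes were thus lower in total at 16 weeks, while the number of barcodes with Ins1 was nearly equal. Their coding sequences were 90.9% identical with a longest shared run of 54 bases.

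At 8 weeks 3 barcodes held 271 of the 324 insulin UMIs (83.6%). They had 116 UMIs of Ins2 and 36 of Ins1, 53 and 24, and 31 and 11. Only 98, 58 and 91 genes were detected in them, with mitochondrial shares of 38.2%, 54.7% and 26%. None held a T cell UMI or a receptor chain. Iapp, the islet amyloid peptide released with insulin, had 17 of its 23 UMIs at 8 weeks in these barcodes, and Sst, somatostatin of delta cells, 4 of 17. By share of UMIs in hormone-rich barcodes Iapp ranked first among 10791 genes with 65.5% over both libraries, and the next gene stood at 14.6%.

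At 16 weeks the only hormone-rich barcode was of another kind. It had 22 UMIs of Ins2 and 7 of Ins1 among 11106 UMIs and 2752 genes, 66 T cell UMIs, Cd4 without Cd8a or Cd8b1, 2 alpha and 3 beta chains, and no enzyme UMI. It held 29 of the 69 insulin UMIs (42%). All 28 barcodes with an insulin UMI at 16 weeks had T cell RNA, so none there had 10 or more hormone UMIs without T cell RNA.

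Gcg (chr2:62474530-62483650, minus strand) did not differ beyond counting error, with 20 UMIs (2.44 CPM, 1.49 to 3.77) at 16 weeks and 16 (1.85 CPM, 1.06 to 3) at 8 weeks, a log2 ratio of 0.39 (-0.62 to 1.45). The sign turned to -1.16 (-3.40 to 0.59) thinned to 1700 UMIs and to -0.66 with each barcode weighted equally. It was found in 9 barcodes at each age, with at most 5 UMIs in 1 barcode at 16 weeks and 4 at 8 weeks. T cell RNA was present in 9 of the 9 at 16 weeks and 8 of the 9 at 8 weeks. None of the Gcg barcodes was hormone-rich, and an insulin UMI stood beside Gcg in 0 at 16 weeks and 1 at 8 weeks.

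Spp1 and Clu behaved unlike each other. Spp1 (chr5:104435118-104441050, plus strand) had 116 UMIs (14.2 CPM, 11.7 to 17) at 16 weeks and 1507 (174 CPM, 165 to 183) at 8 weeks, a log2 ratio of -3.61 (-3.90 to -3.34). Clu, which encodes the secreted chaperone clusterin (chr14:65968483-65981547, plus strand), had 11 UMIs (1.34 CPM) at 16 weeks and 844 (97.5 CPM) at 8 weeks, a log2 ratio of -6.12 (-7.19 to -5.33). At 16 weeks all 11 Clu UMIs lay in 8 enzyme-rich barcodes, none of which had T cell RNA.

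At 8 weeks 4 barcodes carried both genes in quantity, with 391, 367, 283 and 176 UMIs of Spp1 and 133, 430, 179 and 83 of Clu in the same order. They had 3732, 4546, 2882 and 2616 genes, at most 1 T cell UMI and no receptor chain, and 2 of them were enzyme-rich with 35 and 52 UMIs. The 17 duct marker genes summed to 142, 269, 111 and 103 UMIs in them. In the 5 duct-gene-rich barcodes without T cell RNA, these 4 and 1 more, lay 125 of 125 UMIs of the keratin Krt8, 168 of 181 of Krt18, 47 of 47 of the duct factor Sox9 and 25 of 25 of Krt19 in that library. Krt19, Cldn7, Ambp and Sox9 were among the genes with 100% of their UMIs in duct-gene-rich barcodes, and all of those UMIs came from the 8-week library. The fifth barcode was enzyme-rich with 584 UMIs, 14 of Clu and 0 of Spp1.

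Spp1 alone was mostly seen with T cell RNA. All 17 barcodes with Spp1 at 16 weeks and 30 of 35 at 8 weeks had it, and 14 and 27 had a paired receptor. The 5 duct-gene-rich barcodes at 16 weeks held 12 to 24 UMIs of Spp1, none of Clu and no UMI of the duct marker genes. Another 6 at 8 weeks had T cell RNA, held 1 UMI of the duct marker genes and had 235 UMIs of Spp1 together, 164 of them in 1 barcode with 107 T cell UMIs, 2 alpha and 1 beta chain and Cd4. Of the Spp1 barcodes with T cell RNA, 13 of 17 at 16 weeks and 22 of 30 at 8 weeks had Cd4 without Cd8a or Cd8b1, and 0 and 1 the reverse. Among all barcodes with T cell RNA the Cd4 pattern was seen in 37.9% at 16 weeks and 40.8% at 8 weeks. The reverse was seen in 16.8% and 15.6% of them, and neither in 40.9% and 39.5%. Barcodes with Spp1 were deeper than the library, with medians of 4897 against 2840 UMIs at 16 weeks and 6441 against 2819 at 8 weeks. The part of depth in the Cd4 pattern was not tested. A clonotype was found for 16 Spp1 barcodes with T cell RNA at 16 weeks, all 16 distinct, whereas 29 at 8 weeks shared 26 clonotypes. Those with 5 or more UMIs of Spp1 had distinct ones, 7 of 7 at 16 weeks and 8 of 8 at 8 weeks. So the label of a duct gene holds for Spp1 in the 4 barcodes above, whereas nearly all of its other UMIs lay in barcodes with T cell RNA, most of them with a paired receptor.

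The difference in insulin and enzyme RNA between the ages depended on the barcodes counted. Over all barcodes 5 of the 10 genes were 2-fold or more higher at 16 weeks, beside 0.88% of 10791 genes with 20 or more UMIs, and 4 of 10 were 2-fold or more lower, beside 2.23% of those genes. The median log2 ratio was 1.32 for the 10 genes and -0.07 for all genes. In the rest 9 of the 10 genes reached 20 UMIs. Of these 9, 1 gene, Pnlip, was 2-fold or more higher, beside 0.619% of 10662 genes, and 0 were 2-fold or more lower, beside 1.72%.

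In the rest Pnlip had 57 UMIs at 16 weeks and 23 at 8 weeks, a log2 ratio of 1.39 (0.69 to 2.17). Clps had 192 UMIs at 16 weeks and 165 at 8 weeks (0.32, 0.01 to 0.63), and Ctrb1 168 and 139 (0.37, 0.04 to 0.71). Try4 had 74 UMIs at 16 weeks and 53 at 8 weeks (0.58, 0.05 to 1.12), and Prss2 91 and 76 (0.36, -0.10 to 0.82). The 5 together gave a log2 ratio of 0.45 (0.27 to 0.63), and 0.49 (0.27 to 0.70) in the barcodes of the rest with a paired receptor. It was 0.27 (-0.07 to 0.62) in those without a paired receptor and 0.11 (-0.39 to 0.61) in those with Cd8a or Cd8b1 and no Cd4. No difference was detectable in these subsets. Barcodes with Cd4 and no Cd8a or Cd8b1 stood at 0.46 (0.18 to 0.73), those with both at 0.61 (0.01 to 1.24) and those with neither at 0.50 (0.19 to 0.82). So by UMIs the enzyme RNA of the rest as a whole was higher at 16 weeks too, by less than 2-fold. It was not detectably so in every subset, and the subsets were not compared with each other. Those intervals treat UMIs of 1 barcode as independent and are therefore too narrow. The share of barcodes of the rest with an enzyme UMI was 12.9% (11.5 to 14.4) at 16 weeks. At 8 weeks it was 10.2% (8.89 to 11.6), and these intervals overlap slightly.

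**Figure D4:**
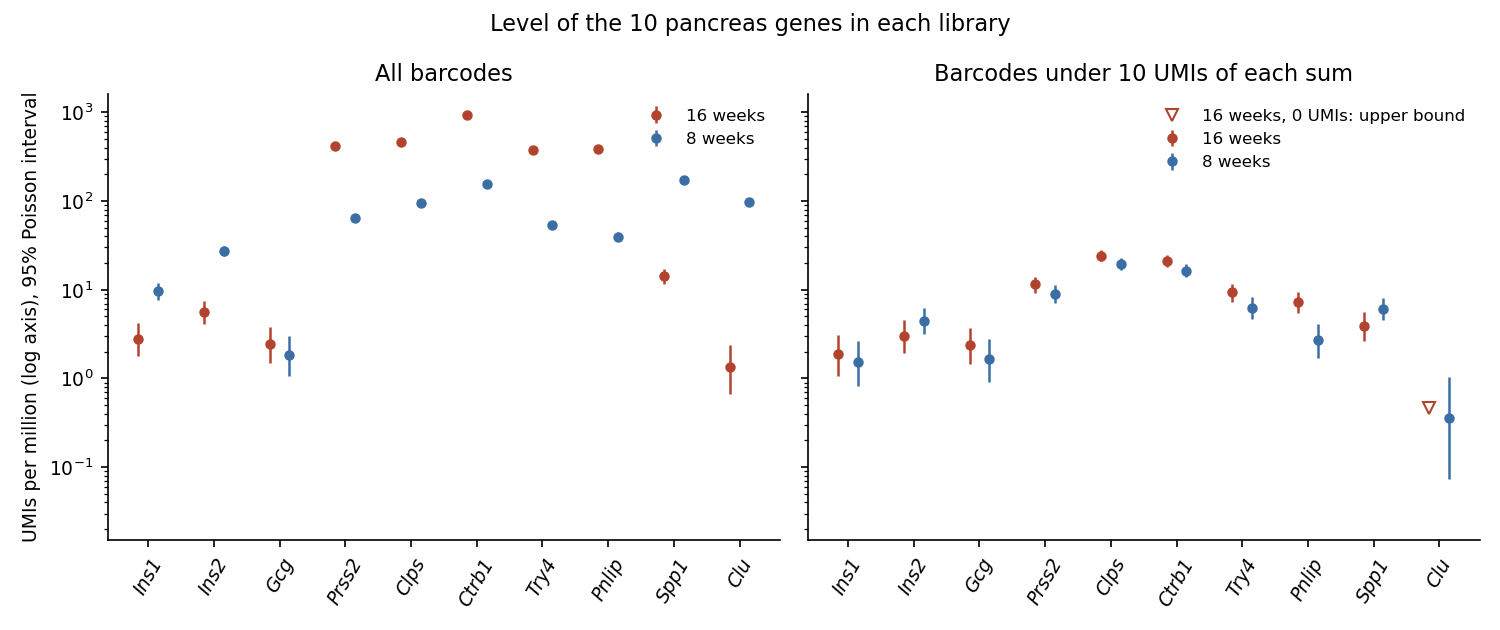
Level of each of the 10 genes as CPM (vertical log axis, points with exact 95% Poisson intervals) over all barcodes (left panel) and over the rest (right panel), at 16 weeks (red, left of each pair) and 8 weeks (blue). Over all barcodes the enzyme points differ by 4.77-fold or more and the Spp1 and Clu points in the other direction, whereas in the rest most pairs lie close together. The open triangle is the upper bound for Clu, which had 0 UMIs in the rest at 16 weeks.

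Insulin RNA in the rest was 39 UMIs (4.93 CPM, 3.51 to 6.74) at 16 weeks and 51 (6.02 CPM, 4.48 to 7.92) at 8 weeks, a log2 ratio of -0.28 (-0.93 to 0.34), not a detectable difference at this depth. In barcodes of the rest with a paired receptor it was 36 UMIs at 16 weeks and 31 at 8 weeks, a log2 ratio of 0.37 (-0.36 to 1.11). In those without, it was 3 UMIs in 2 barcodes at 16 weeks and 20 in 7 barcodes at 8 weeks, a log2 ratio of -2.68 (-5.26 to -1.11). In barcodes of the rest without Cd4, Cd8a or Cd8b1 it was 7 UMIs at 16 weeks and 22 at 8 weeks, a log2 ratio of -1.70 (-3.23 to -0.49). So by UMIs insulin was lower at 16 weeks in these overlapping subsets of the rest. No difference was detectable with a paired receptor. UMIs of 1 barcode are not independent draws, so these intervals are too narrow. The share of barcodes with an insulin UMI was 0.3% (0.0364 to 1.08) without a paired receptor at 16 weeks. At 8 weeks it was 1.08% (0.435 to 2.21). Without Cd4, Cd8a or Cd8b1 it was 0.683% (0.251 to 1.48) and 1.21% (0.582 to 2.22). The intervals of these shares overlap, and the difference between the subsets was not tested. Ins1 in the rest had 15 UMIs at 16 weeks and 13 at 8 weeks, and Ins2 24 and 38. Spp1 in the rest had 31 UMIs at 16 weeks and 52 at 8 weeks (-0.64, -1.34 to 0.02), and Clu 0 and 3.

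A usual filter for cells, with at least 500 genes detected and at most 10% of UMIs from mitochondria, kept 1934 barcodes at 16 weeks and 1875 at 8 weeks and turned the insulin difference round. It removed 0 of 69 insulin UMIs at 16 weeks and 281 of 324 at 8 weeks, which left 69 (8.82 CPM, 6.86 to 11.2) at 16 weeks and 43 (5.11 CPM, 3.70 to 6.88) at 8 weeks. The log2 ratio became 0.78 (0.22 to 1.37) in place of -2.14 (-2.55 to -1.77), and 0.01 (-0.66 to 0.68) when the hormone-rich barcode of the 16-week library and the other rich barcodes were left out as well. For the enzymes the filter removed 19933 of 21136 UMIs at 16 weeks and 2747 of 3540 at 8 weeks. It left 1203 (154 CPM, 145 to 163) at 16 weeks and 793 (94.2 CPM, 87.8 to 101) at 8 weeks, a log2 ratio of 0.71 (0.58 to 0.84). After the filter both sums were thus higher at 16 weeks, by less than 2-fold. Of the enzyme-rich barcodes 23 remained at 16 weeks, all with T cell RNA, and 11 at 8 weeks, 9 of them with it. Spp1 stayed lower at 16 weeks, with 116 UMIs against 1328 at 8 weeks, and Clu had 0 and 746. Most of these 8-week UMIs lay in a few kept barcodes without T cell RNA. Those had 391, 367 and 283 UMIs of Spp1 and 133, 430 and 179 of Clu in the same order.

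**Figure D5:**
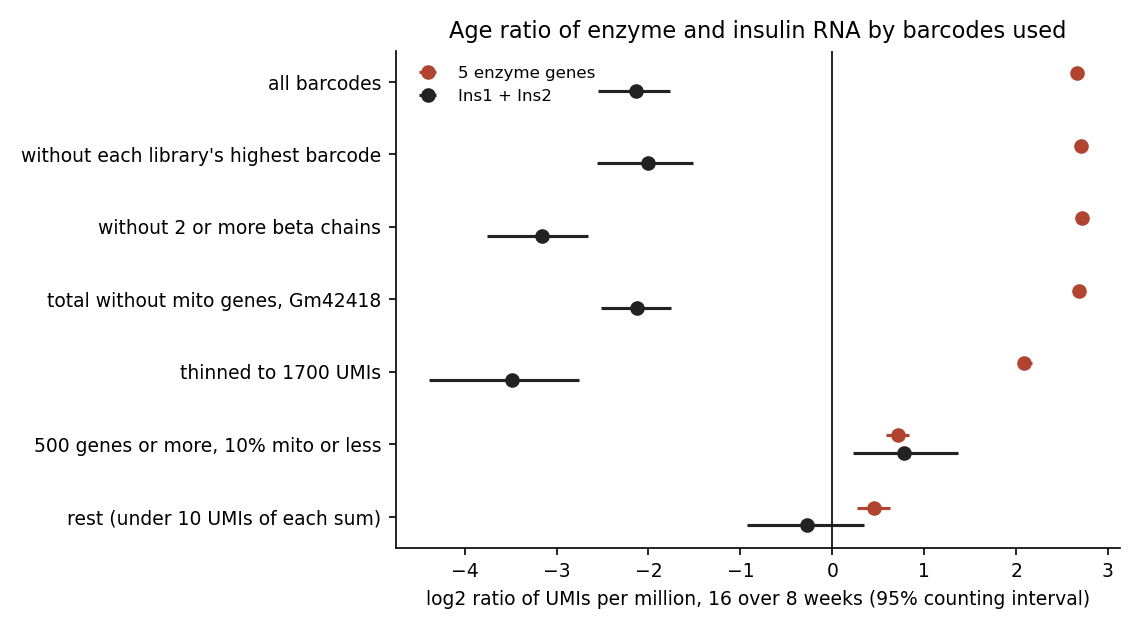
Log2 ratio of the level at 16 weeks over that at 8 weeks (horizontal axis, points with 95% counting intervals) of the 5 enzyme genes (red) and of Ins1 + Ins2 (black), for 7 choices of barcodes or totals down the page. The enzyme points stay right of 0 in every row, from 2.66 over all barcodes to 0.71 after the filter and 0.45 in the rest, whereas insulin lies at -2.14 over all barcodes, at 0.78 after the filter and at -0.28 in the rest.

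The other acinar genes went with the members. Of 29 acinar markers outside the 5 enzymes, such as Cela1, Cpa1 and Cel, 27 were found and 22 had 20 or more UMIs. All 22 were 2-fold or more higher at 16 weeks over all barcodes, with a median log2 ratio of 2.66. In the rest 13 had 20 or more UMIs and 2 were 2-fold or more higher, with a median of 0.31. Of the duct markers 9 had 20 or more UMIs and 8 were 2-fold or more lower at 16 weeks, with a median of -5.78; in the rest 0 of 3 were, with a median of -0.46. Of the islet endocrine markers beside the 3 hormones, 5 had 20 or more UMIs, 2 were 2-fold or more lower and the median was -0.40. In the rest 0 of 3 were lower, with a median of 0.23. The lower ones over all barcodes were Iapp and Ttr. Of the 30 UMIs of Ttr at 8 weeks, 26 lay in duct-gene-rich barcodes and 0 in hormone-rich ones. The 16 T cell genes had a median log2 ratio of -0.10, and 0 of them differed by 2-fold or more. Markers of other cells also differed between the libraries, with few genes at 20 or more UMIs. Of 3 dendritic cell markers 2, H2-Aa and H2-Ab1, were 2-fold or more lower at 16 weeks and 1, Itgax, was higher, with a median of -2.74 both over all barcodes and in the rest. The UMIs of H2-Aa numbered 61 at 16 weeks and 434 at 8 weeks. All dendritic cell markers together had 669 UMIs in the rest at 8 weeks, in 39 barcodes, and 292 of them lay in 1 barcode. Of 2 myeloid markers 1, Lyz2, was lower, with a median of -1.58 over all barcodes and -1.69 in the rest. Of the 121 UMIs of all myeloid markers in the rest at 8 weeks, 63 lay in 1 barcode. Of 3 B cell markers 1 was lower, with a median of -0.68 and -0.66, and of 2 endothelial and stromal markers 1, Acta2, was higher, with a median of 1.71 and 1.72. No erythroid marker reached 20 UMIs.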

How the data were processed

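T cells sorted from islets were measured in 1 RNA and 1 receptor library per age. Raw UMI counts, whole numbers with no normalization, were deposited for each gene in each barcode; per the file headers the matrices carry software version 3.0.1. The receptor tables give UMI counts per assembled chain, per the file headers. The submitters' processing notes name mm10 and Seurat without a role. The aligner, annotation, strand use and any filter on barcodes before deposit: not given in the sources used here. Doublets were not removed.

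Counts were summed over barcodes and divided by the total UMIs of the same barcodes (CPM). CPM have exact Poisson intervals, shares Clopper-Pearson intervals, and log2 ratios add 0.5 UMIs to each sum with an interval exact for the gene's total; all are 95% and counting error only. A gene counted as different at 2-fold or more, among genes with 20 or more UMIs. The most similar genes were the 10 with the highest share of UMIs in rich barcodes. The calculation was tested on simulated data drawn with counting error only, so that test does not cover UMIs clustered in few barcodes. Receptors were joined to RNA by barcode within an age. The members and lists were chosen with earlier results of these data known. Coordinates are from GENCODE M21 by Ensembl identifier, and promoters, found for 7 of 10 members, from RefSeq. Python 3.11.15, numpy 2.4.6, pandas 2.3.3, scipy 1.17.1, Biopython 1.88 and matplotlib 3.10.9 were used.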

Additional observations from a re-analysis of the deposited data

How the results depend on the processing

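No paired analysis was possible because each age has 1 RNA library. Insulin RNA, at a log2 ratio of -2.14 over all barcodes, changed sign with the filter on genes and mitochondrial share (0.78; Ins1 1.27, Ins2 0.58, and 0.82 with Gcg added). It was -3.16 without barcodes of 2 or more beta chains, -3.48 thinned to 1700 UMIs and -4.19 with each barcode weighted equally. Enzyme RNA, at 2.66, was 0.71, 2.72, 2.09 and 1.78 under the same 4 settings. Enzyme-rich barcodes numbered 87 and 49 at 16 and 8 weeks with a cut of 5 UMIs, 23 and 11 with the filter, and 33 and 15 with a cut of 1% of a barcode's UMIs, in place of 52 and 27. The share of them with T cell RNA, 44.2% and 37%, was 66.7% and 63.3% with the cut of 5 and 100% and 81.8% with the filter; it was 22.9% and 20% with a cut of 20, and 62.9% and 52.6% among barcodes deep enough to be thinned. The share with a paired receptor, 32.7% and 22.2%, was 73.9% and 45.5% with the filter, 14.3% and 20% with the cut of 20 and 46% and 42.9% with the cut of 5. The filter and the deeper cuts change which barcodes enter, by construction. Enzyme RNA in the rest, at 0.45, was 0.64 with the cut of 20. Clps in enzyme-rich barcodes was 20.8% at 16 weeks with the filter, and 16.6% and 19.1% without the highest barcode of each library, an alternative chosen after seeing the data; Ctrb1 was 29.7% at 8 weeks with the filter. Without the minimum of 20 UMIs, 1065 genes were 2-fold or more higher and 2124 lower at 16 weeks, in place of 95 and 241. Of 166 values recomputed, 90 stayed within their counting interval or within 1.5 times a count, 72 moved and 4 that differed by 2-fold or more changed sign. The sign also turned for values whose interval includes 0: Gcg, at 0.39, was -1.16 thinned and -0.66 with each barcode weighted equally, and insulin in the rest, at -0.28, was 0.01 with the filter. Depth limits Gcg, with 20 UMIs at 16 weeks and 16 at 8 weeks, and Clu in the rest, with 0 and 3.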
